A study of Arabidopsis thaliana with 24 samples.

Results

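The 100 genes described here were induced by auxin in Arabidopsis thaliana roots. By the score given below, their induction was the most reduced in roots in which an artificial microRNA against TOR had been switched on. Each gene's count was divided by the library's sum over gene loci and scaled to the usual CPM unit. The auxin response of a gene was its mean log2(CPM + 1) over the IAA libraries minus the same mean over the NPA libraries. Of 32833 loci in the tables, 1341 had a response of at least 1 in UB10pro_amiR-TOR without estradiol, in Col-0 with estradiol and in Col-0 without it. A score was formed as the smallest of those responses minus the response in UB10pro_amiR-TOR with estradiol, and the 100 genes with the highest score are the members. The members were thus chosen by their measured responses, so these responses, and each comparison of which they are made, are given below as a description with no test.

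The study profiled 24 root libraries, 3 for each of 8 groups, by RNA sequencing. UB10pro_amiR-TOR is named for a UB10 promoter and an artificial microRNA against TOR and is described in the labels as inducible, here by estradiol; Col-0 is the wild type. The labels do not say how many independent lines were used, and they name no inducible control line. All seedlings, of both genotypes, were 7 d old when they were put on 10 µM NPA, an inhibitor of auxin transport, for 24 h. They were then moved for another 24 h to 10 µM NPA with 10 µM estradiol or with the solvent DMSO. In the groups IAA_Es and IAA of each genotype the seedlings then went to 10 µM IAA, the natural auxin, with 10 µM estradiol (IAA_Es) or DMSO (IAA). In the groups NPA_Es and NPA they stayed on their plates. Roots were harvested 6 h later, and each sample pooled about 200 segments from the lower part of the roots. The labels do not state that the IAA plates held NPA, so IAA and NPA groups differ in both compounds as far as they say.

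As background, auxin acts by degrading Aux/IAA repressors, which releases ARF activators onto target genes such as the Aux/IAA genes themselves and the LBD genes of lateral root founder cells. TOR is a kinase that couples growth to nutrient and hormone supply and promotes ribosome production, for which nucleolar proteins cut, modify and assemble ribosomal RNA. Chaperones of the HSP70, HSP90 and chaperonin families fold newly made proteins and are also induced by heat and other stress.

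Gene counts per library lay between 8589833 and 40494513, with a median of 21340900.5. In 5 libraries between 25.8% and 47.6% of reads were unmapped: UB10pro_amiR-TOR_IAA_Es replicate 1, Col-0_IAA_Es replicates 2 and 3, Col-0_IAA replicate 1 and Col-0_NPA replicate 1. In the other 19 libraries the share lay between 1.56% and 12%. TOR had 24.1, 27.7 and 26.8 CPM on IAA and 33.5, 22 and 25.3 CPM on NPA in UB10pro_amiR-TOR with estradiol, against 61.4, 55.8 and 71.3 CPM and 53.5, 65.2 and 55.6 CPM without it. TOR was thus lower in all 6 libraries of the line with estradiol than in all 6 without it, by a log2 fold change of -1.17 ± 0.11 over both conditions (± SE, edgeR adjusted p = 6.94e-08), and its estradiol effect in Col-0 was 0.21 ± 0.11 (edgeR adjusted p = 0.227). Leaf and shoot markers (10 photosynthesis genes, summed) lay between 10.9 and 17.8 CPM in UB10pro_amiR-TOR_IAA_Es, 21.7 and 71.9 CPM in NPA_Es, 43.9 and 111 CPM in IAA, and 143 and 160 CPM in NPA of that line. In Col-0 the same sum lay between 18.7 and 37.6 CPM in IAA_Es, 67.8 and 158 CPM in NPA_Es, 27.7 and 53.1 CPM in IAA, and 161 and 204 CPM in NPA. All 5 root hair, 5 endodermis, 6 xylem, 3 phloem and 2 root cap markers had at least 1 CPM in every group. Marker sums thus moved with the groups, and their part in the results below was not tested; in pooled root RNA, fewer cells of a type and less RNA per cell cannot be told apart.

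In UB10pro_amiR-TOR with estradiol the members' auxin response had a median of 0.46 log2 units, with a range of -1.02 to 4.45. Their median response was 1.68 in the same line without estradiol, 1.74 in Col-0 with estradiol and 2.27 in Col-0 without it. With estradiol in the line, 16 members responded below 0, 13 still responded by at least 1, and 51 lay within 0.5 of 0. The other 1241 genes that passed the response minimum had medians of 1.04 in UB10pro_amiR-TOR with estradiol, 1.54 in the line without it, 1.5 in Col-0 with estradiol and 1.88 in Col-0 without it. The members' score had a median of 1.11 and a range of 0.96 to 2.62. At the boundary, AT1G15870 at 0.962 and PUR5 at 0.961 were the last members, while HSP60 at 0.956 and AT4G34290 at 0.955 were just outside. CDT1B, with a smallest response of 1.02, and SNOR77, with 1.03, were just inside the response minimum, while an HSP70 gene (AT3G12580) at 0.99 and cpHsc70-2 at 0.98 were just outside. In all, 33 genes had a score as high as a member's and were left out by that minimum.

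**Figure D1:**
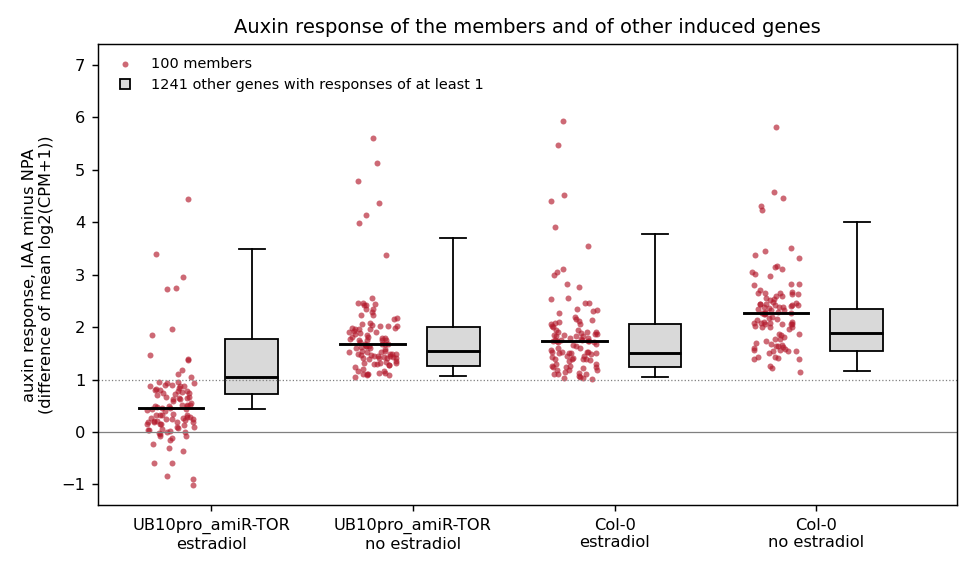
Auxin response (difference of mean log2(CPM + 1), IAA minus NPA) in the 4 arms, each genotype treated or not with estradiol, shown as points for the 100 members with their median as a line, and as boxes for the other 1241 genes that passed the response minimum (median, quartiles, whiskers from the 5th to the 95th percentile). The members' median is 0.46 in UB10pro_amiR-TOR with estradiol, against 1.68 without it, as the selection requires.

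All 3 IAA libraries lay above all 3 NPA libraries in 58 members in UB10pro_amiR-TOR with estradiol, where 25% of the 21290 tested genes did so. The count was 98 in the line without estradiol (31.6% of tested genes), 99 in Col-0 with estradiol (29.4%) and 100 in Col-0 without it (30.6%). In 4 members of the line with estradiol, all IAA libraries lay below all NPA libraries (23.6% of tested genes). These counts describe the selection.

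A smaller response can come from a higher level on NPA, a lower level on IAA, or both. In UB10pro_amiR-TOR the members' level on NPA was higher with estradiol by a median of 0.75 log2 units (96 of 100 higher), and their level on IAA was lower by a median of 0.38 (89 of 100 lower). In 66 members the change on NPA was the larger of the pair, and in 85 the level was both higher on NPA and lower on IAA. In Col-0 the level on NPA was also higher with estradiol, by a median of 0.61 (96 of 100 higher), while the median difference on IAA was 0.06 (66 of 100 higher). Of the other 1241 induced genes, 966 were higher on NPA and 896 lower on IAA with estradiol in the line (median differences 0.32 and -0.16). In Col-0, 1017 of those genes were higher on NPA and 645 higher on IAA (median differences 0.29 and 0.01). The summed members took 1.2% to 1.46% of gene counts on IAA and 0.932% to 1.1% on NPA in UB10pro_amiR-TOR with estradiol, against 1.45% to 1.55% on IAA and 0.445% to 0.499% on NPA without it. In Col-0 they took 2.12% to 2.16% on IAA and 0.585% to 0.75% on NPA with estradiol, against 1.83% to 1.87% on IAA and 0.353% to 0.459% on NPA without it. The IAA libraries of the line with and without estradiol overlapped, while the ranges of all other pairs of groups within a genotype lay apart, and the step from NPA to IAA was smallest in the line with estradiol. These sums weigh a few highly expressed members most. HSC70-1, NUC-L1, AT3G09440, HSP81-2 and HSP81-3 averaged 2451, 876, 765, 758 and 644 CPM over all libraries, while the median member averaged 29.3 CPM.

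**Figure D2:**
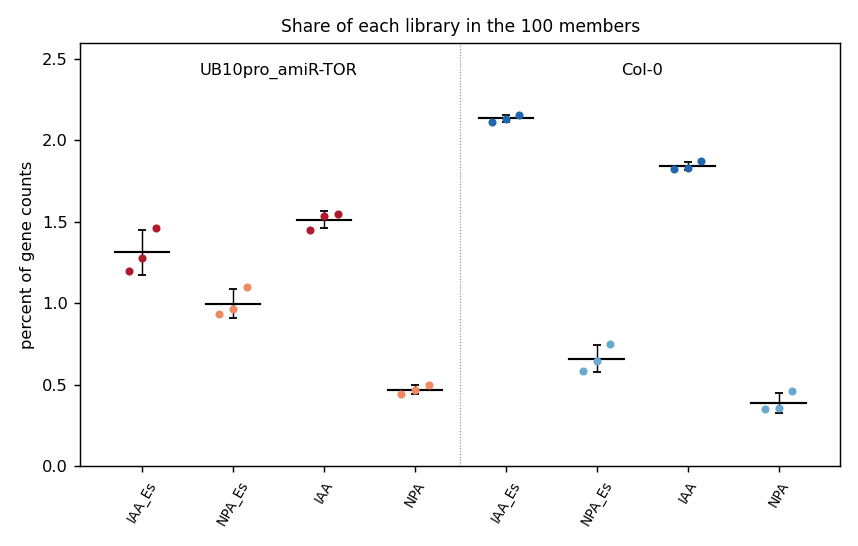
Percent of each library's gene counts taken by the 100 members (y axis) in the 8 groups (x axis), with 3 libraries per group as points, the mean as a line and the SD as a bar. In UB10pro_amiR-TOR with estradiol the IAA libraries reach 1.2% to 1.46% and the NPA libraries 0.932% to 1.1%, while in Col-0 without estradiol they lie at 1.83% to 1.87% and 0.353% to 0.459%. The sum weighs a few highly expressed members, chaperones among them, most.

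By their annotated products 71 members were sorted into 8 role groups, a sorting made after the list was known, and 29 stayed unsorted. The change on NPA was the larger one in all 13 chaperone and heat shock members, in 15 of 16 members of the nucleolus and rRNA processing, in all 8 of ribosome and translation and in all 3 of DNA replication and repair. It was the larger one in 3 of 9 auxin signalling and transcription factor members and in 1 of 6 members of transport and metabolism. Cell wall and secreted proteins divided evenly, 6 of 12, and of 4 small nucleolar RNAs it was the larger one in 1. Among the 29 unsorted members it was the larger one in 16. These counts are on the log2(CPM + 1) scale, which flattens changes at levels below 1 CPM.

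**Figure D3:**
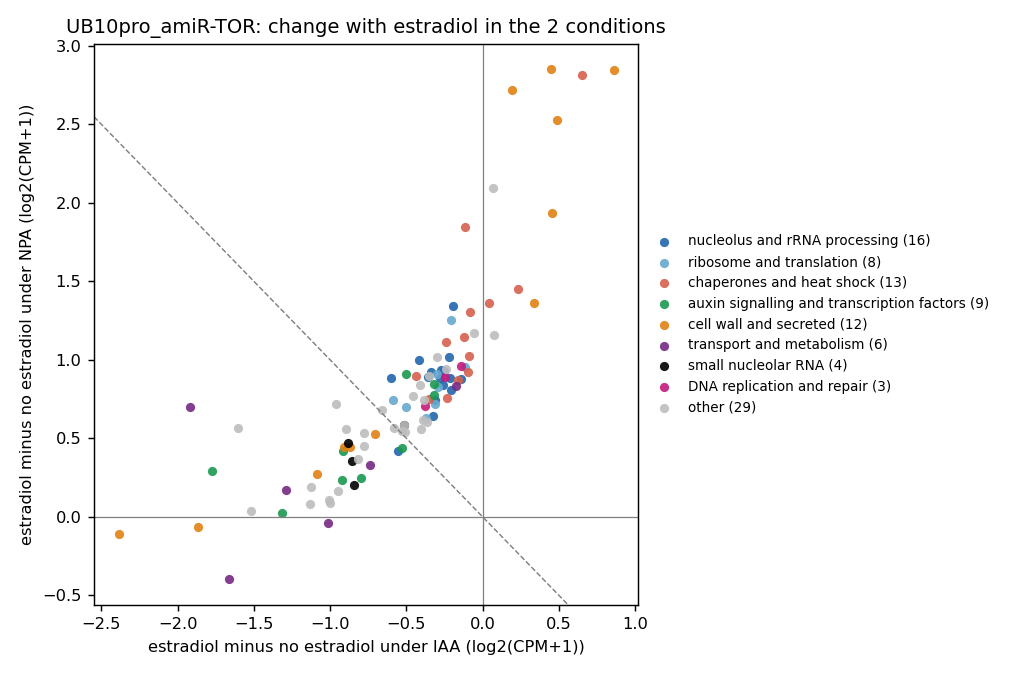
Change with estradiol in UB10pro_amiR-TOR, as a difference of mean log2(CPM + 1), under IAA (x axis) and under NPA (y axis), with a point per member coloured by role group; on the dashed line the change on NPA equals the size of the fall on IAA. Points right of the dashed line changed more on NPA, which holds for 66 members, among them all 13 chaperone members.

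The rule used only differences between IAA and NPA. The estradiol effect and the genotype difference, each averaged over IAA and NPA, were not used by the rule but come from the same libraries. They are unrelated to the rule only where IAA and NPA libraries vary alike, which was not tested. In the line, an averaged effect above 0 largely restates a larger change on NPA: 71 members had the first and 66 the second. Both averages were tested over all genes with edgeR's quasi-likelihood test. A gene was called at a Benjamini-Hochberg adjusted p under 0.05. Averaged in this way, estradiol raised 45 members and lowered 8 in UB10pro_amiR-TOR, where 21.1% of the 21290 tested genes were called higher and 16.2% lower. In Col-0, estradiol raised 50 members and lowered 0, where 5.35% of tested genes were called higher and 3.76% lower. Of the other 1241 induced genes, 29.2% were called higher and 9.19% lower in UB10pro_amiR-TOR, and 17.6% higher and 1.37% lower in Col-0. The members' median estradiol effect was 0.23 in the line and 0.41 in Col-0 on the log2 scale, against 0.05 and 0.01 over all tested genes. The 2 effects share no library, and 37 members were called higher in both, which is 82.2% of those called in the line and 74.0% of those called in Col-0. The same overlap was not counted for the other induced genes or all tested genes, so it cannot be called particular to the members. The count in Col-0 rests in part on single libraries: it was 24 without Col-0_NPA_Es replicate 3 and 33 without Col-0_NPA replicate 3. At an unadjusted p under 0.05, 60 members changed in the line and 68 in Col-0, in either direction. Nothing in the labels says that replicates came from separate plantings, so these p-values measure the spread between samples, which may be technical in part.

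**Figure D4:**
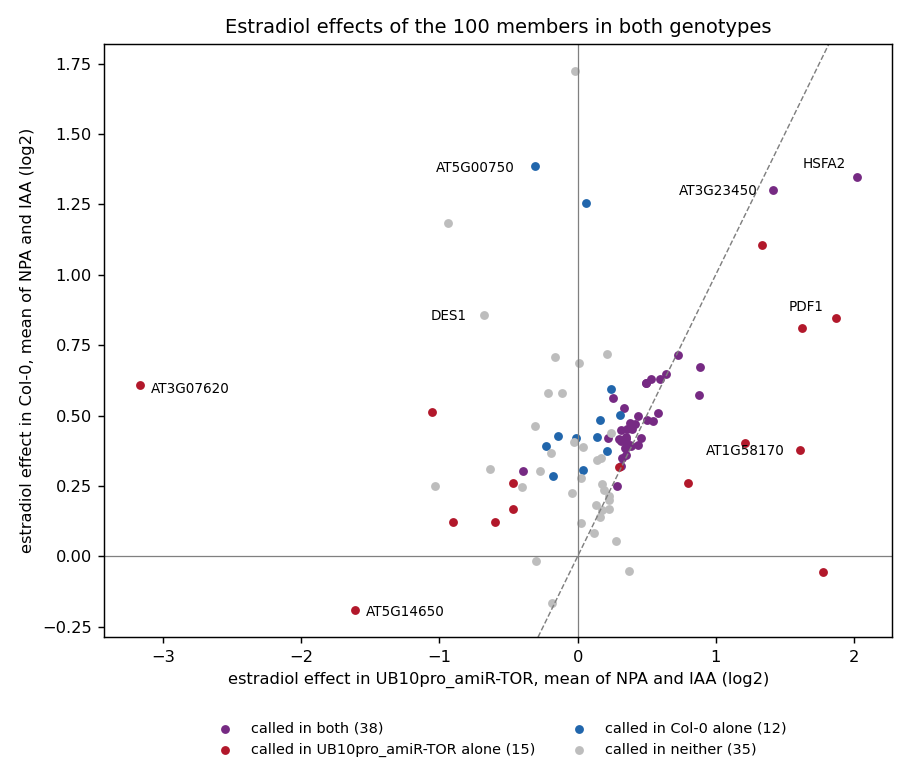
Estradiol effect averaged over NPA and IAA (log2 fold change, edgeR) in UB10pro_amiR-TOR (x axis) and Col-0 (y axis) for each member, coloured by whether it passed an adjusted p of 0.05; the dashed line marks equal effects. Most points lie above 0 on the y axis, 95 of 100, as did 958 of the other 1241 induced genes and 11115 of 21290 tested genes. In both genotypes 38 members were called, of which AT4G15160 had opposite signs.

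Without estradiol, 12 members were higher and 3 lower in UB10pro_amiR-TOR than in Col-0, averaged over NPA and IAA, where 13.7% of tested genes were called higher and 12% lower. The count of lower members was 13 without Col-0_NPA replicate 2 and 5 without Col-0_IAA replicate 2. The estradiol effect itself differed between the genotypes in 13 members, 2 more positive and 11 more negative in the line, where 6.62% and 6.46% of tested genes were called. Without UB10pro_amiR-TOR_IAA_Es replicate 3 the count of more negative members was 7. The count of more positive members was 4 without UB10pro_amiR-TOR_NPA replicate 3 and 1 in each fit that left out UB10pro_amiR-TOR_IAA replicate 3, Col-0_NPA_Es replicate 2, Col-0_IAA replicate 1 or Col-0_NPA replicate 1.

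Genes of the nucleolus and rRNA processing formed the largest role group, with 16 members. Estradiol raised 11 of the 16 in UB10pro_amiR-TOR and 12 in Col-0, averaged over NPA and IAA, and lowered 0 in either genotype. The shares of all tested genes called higher were 21.1% in the line and 5.35% in Col-0. In edgeR's test 0 of the 16 differed between the genotypes without estradiol (6 at an unadjusted p under 0.05, all 16 with a lower value in the line), and 0 differed in their estradiol effect (1 at an unadjusted p under 0.05). Of tested genes, 13.7% were called higher and 12% lower in the former comparison, and 6.62% and 6.46% in the latter. At such shares, 0 calls among 16 genes do not show that the genotypes respond alike. FIB2 (AT4G25630, chr4:13074090-13076432 on the plus strand; all positions are in TAIR10.1) encodes fibrillarin 2, the methyltransferase of box C/D snoRNPs, which methylate ribosomal RNA. FIB2 had 421, 433 and 412 CPM on IAA and 209, 252 and 224 CPM on NPA in UB10pro_amiR-TOR with estradiol, against 501, 451 and 498 CPM and 89.5, 82.4 and 95.6 CPM without it. The Col-0 values were 664, 679.9 and 714 CPM on IAA and 154, 136 and 192 CPM on NPA with estradiol, against 707, 645 and 716 CPM and 89, 48.7 and 54.4 CPM without it. Its NPA libraries with estradiol lay above all NPA libraries without it in both genotypes, while its IAA libraries were lower in the line than in Col-0 throughout. Averaged over both conditions the estradiol effect on FIB2 was 0.60 ± 0.11 in the line (log2 ± SE, edgeR adjusted p = 0.000175) and 0.63 ± 0.11 in Col-0 (edgeR adjusted p = 0.00241).

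AT5G27120 and AT3G12860, annotated as NOP56-like ribonucleoproteins of pre-RNA processing, are core proteins of the same particles. AT5G27120 had 368, 380.3 and 359 CPM on IAA and 179.7, 220.5 and 182 CPM on NPA in UB10pro_amiR-TOR with estradiol, against 501, 447 and 534 CPM and 95.1, 86.2 and 108 CPM without it. In wild-type Col-0 the gene had 689, 712 and 808 CPM on IAA and 151, 136 and 200.4 CPM on NPA with estradiol, against 782, 647 and 703 CPM and 109.9, 67.5 and 81.3 CPM without it. It was high on IAA and low on NPA in every arm without overlap, and the gap was narrowest in the line with estradiol. Its estradiol effect was 0.31 ± 0.11 in the line (edgeR adjusted p = 0.0245), a call lost in 3 of 12 fits that each left out a library (adjusted p up to 0.0719), and 0.45 ± 0.11 in Col-0 (edgeR adjusted p = 0.0128), a call lost without Col-0_NPA_Es replicate 3 (adjusted p = 0.0550). AT3G12860 was called higher with estradiol in Col-0 (0.50 ± 0.14, edgeR adjusted p = 0.0288), a call lost in 7 of 12 fits that each left out a library (adjusted p up to 0.105) and with only the groups compared (0.0721), and its value in the line was 0.30 ± 0.14 (edgeR adjusted p = 0.091). NAP57, a pseudouridine synthase homologue given here for its promoter, rose with estradiol by 0.35 ± 0.10 in the line (edgeR adjusted p = 0.00855) and by 0.42 ± 0.10 in Col-0 (edgeR adjusted p = 0.0126). The group also holds NUC-L1, a nucleolin, which binds ribosomal RNA genes and their transcripts, and the plant-specific histone deacetylases HDT4, HDA3 and HD2B. HDT4 had the highest score of the group: 172, 161 and 122 CPM on IAA and 81.3, 99.4 and 86.6 CPM on NPA in the line with estradiol, against 227, 201 and 258 CPM and 46.4, 44.3 and 52.7 CPM without it. In Col-0 HDT4 had 281, 299 and 316 CPM on IAA and 62.4, 52.7 and 86.8 CPM on NPA with estradiol, against 394, 268 and 285 CPM and 58.9, 27 and 27.2 CPM without it. Col-0_NPA replicate 1, one of the libraries with many unmapped reads, and Col-0_NPA_Es replicate 3 were the highest of their groups for FIB2, AT5G27120, AT3G12860 and HDT4.

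As a description of the selection, the median response of the nucleolar group was 0.77 in UB10pro_amiR-TOR with estradiol and 1.89 without it, and 1.87 in Col-0 with estradiol and 2.59 without it. On NPA the group's level was higher with estradiol by a median of 0.89 in the line and 0.81 in Col-0; on IAA the median difference was -0.28 in the line and 0.04 in Col-0.

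**Figure D5:**
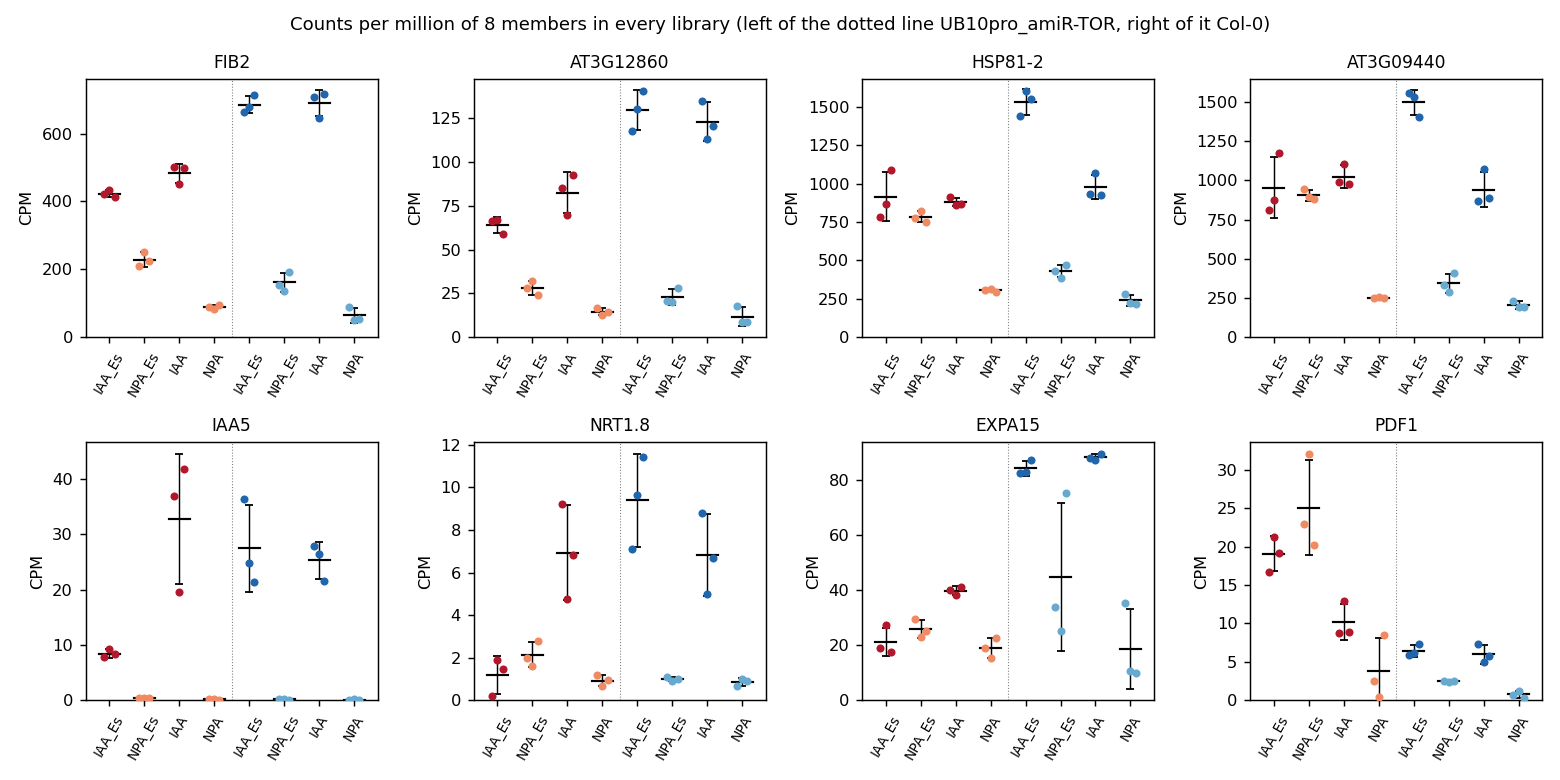
CPM of 8 members in every library, each panel starting at 0, with groups of UB10pro_amiR-TOR left of the dotted line and of Col-0 right of it; points are libraries, lines means and bars SDs of 3 libraries. FIB2, AT3G12860, HSP81-2 and AT3G09440 stay raised on NPA with estradiol in the line, while IAA5 and NRT1.8 are low on IAA with estradiol in the line.

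Promoters of these genes carry motifs known from plant ribosome genes, the telo box (AAACCCTA) and site II (TGGGCC or TGGGCT). Both strands were searched from 250 bases before to 50 after the annotated gene start in TAIR10.1. A telo box was present in 10 of the 16 nucleolar members (62.5%), in 27.0% of all members, in 15.3% of the other induced genes and in 5.67% of 21204 tested genes with a promoter. Site II was present in 11 of the 16 (68.8%), in 38.0% of all members, in 27.8% of the other induced genes and in 24.7% of tested genes. Both were present in 9 of the 16 (56.2%), in 14.0% of all members, in 6.85% of the other induced genes and in 2.45% of tested genes. Over all 37897 annotated promoters the shares were 6.17% for the telo box, 19.3% for site II and 1.98% for both. A match is a description of the letters in the window. The promoters of the 3 nucleolar members and of the 1 ribosome and translation member with the highest score that hold both motifs are printed 5′ to 3′ on the gene's strand, from RefSeq's TAIR10.1 sequence, from 250 bases before to 30 after the gene start, with telo boxes and site II motifs of either strand in capitals. They lie at chr5:9540611-9540890 (plus strand, AT5G27120), chr3:4091317-4091596 (plus strand, AT3G12860), chr3:21156046-21156325 (minus strand, NAP57) and chr5:1807861-1808140 (plus strand, EIF3G2).
AT5G27120: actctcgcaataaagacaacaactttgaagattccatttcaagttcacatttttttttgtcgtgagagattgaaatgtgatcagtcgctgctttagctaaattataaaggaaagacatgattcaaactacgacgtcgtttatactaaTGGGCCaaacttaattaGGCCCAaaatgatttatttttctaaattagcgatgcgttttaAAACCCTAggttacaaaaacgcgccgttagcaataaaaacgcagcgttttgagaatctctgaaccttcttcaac
AT3G12860: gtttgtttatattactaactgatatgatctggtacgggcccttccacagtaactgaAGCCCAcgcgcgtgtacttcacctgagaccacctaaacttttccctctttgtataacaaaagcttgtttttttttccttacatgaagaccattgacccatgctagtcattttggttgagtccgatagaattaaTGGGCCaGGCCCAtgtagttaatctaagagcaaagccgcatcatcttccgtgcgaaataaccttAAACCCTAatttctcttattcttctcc
NAP57: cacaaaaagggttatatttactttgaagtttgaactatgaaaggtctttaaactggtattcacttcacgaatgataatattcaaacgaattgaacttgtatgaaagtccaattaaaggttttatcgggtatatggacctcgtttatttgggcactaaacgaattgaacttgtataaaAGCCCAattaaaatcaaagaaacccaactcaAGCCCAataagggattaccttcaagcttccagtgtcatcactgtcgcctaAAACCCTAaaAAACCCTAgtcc
EIF3G2: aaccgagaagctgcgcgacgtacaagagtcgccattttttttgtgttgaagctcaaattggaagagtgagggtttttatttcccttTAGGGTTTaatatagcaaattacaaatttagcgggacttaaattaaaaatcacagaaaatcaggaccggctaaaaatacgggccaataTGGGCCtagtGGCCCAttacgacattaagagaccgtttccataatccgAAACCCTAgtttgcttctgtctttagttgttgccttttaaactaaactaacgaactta
In AT5G27120 and AT3G12860 a pair of TGGGCC motifs on opposite strands stands upstream of a single telo box, which lies at bases -44 to -37 in AT5G27120 and 4 to 11 in AT3G12860. NAP57 carries telo boxes at bases 9 to 16 and 19 to 26 from the gene start. E2F motifs (TTTCCCGC) were in 0 of the 100 members, against 0.816% of tested genes.

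Ribosome and translation genes numbered 8. Estradiol raised 4 of the 8 in UB10pro_amiR-TOR and 4 in Col-0 and lowered 0. In the estradiol effect 0 of the 8 differed between genotypes (0 at an unadjusted p under 0.05), beside 6.62% of tested genes called more positive and 6.46% more negative. RPSAb, a protein of the small ribosomal subunit, had 32.2, 31.9 and 32.2 CPM on IAA and 24, 27.6 and 24.8 CPM on NPA in UB10pro_amiR-TOR with estradiol, against 39.1, 37.1 and 43 CPM and 13.1, 12.5 and 13.6 CPM without it. In Col-0 RPSAb had 49.6, 52.8 and 50.4 CPM on IAA and 16.3, 15.6 and 25.2 CPM on NPA with estradiol, against 50.3, 44.4 and 53.2 CPM and 13.8, 9.97 and 9.57 CPM without it. Its NPA values with estradiol lay above those without it in both genotypes, without overlap. The estradiol effect on RPSAb was 0.34 ± 0.10 in the line (edgeR adjusted p = 0.00893) and 0.38 ± 0.10 in Col-0 (edgeR adjusted p = 0.0196), and the call in Col-0 was lost without Col-0_NPA_Es replicate 3 (adjusted p = 0.0786) or Col-0_NPA replicate 3 (adjusted p = 0.0662) and with only the groups compared (adjusted p = 0.0712). RPL3B, a protein of the large subunit, was lower in the line than in Col-0 without estradiol (-0.32 ± 0.08, edgeR adjusted p = 0.00365). Most genes of these pathways were not members: of 319 tested ribosomal protein genes, 5 were members, and of 76 tested ribosome biogenesis genes, 7 were. In UB10pro_amiR-TOR, where 21.1% of tested genes were called higher with estradiol and 16.2% lower, 95 ribosomal protein genes were called higher and 33 lower, and 18 ribosome biogenesis genes higher and 2 lower. In Col-0, where 5.35% of tested genes were called higher and 3.76% lower, the same lists had 27 higher and 10 lower, and 11 higher and 1 lower.

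Chaperone and heat shock genes numbered 13, and all 13 were called higher with estradiol, averaged over NPA and IAA, in both UB10pro_amiR-TOR and Col-0. The shares of tested genes called higher were 21.1% in the line and 5.35% in Col-0. The call of Cpn60beta2, a chaperonin, in the line was lost without UB10pro_amiR-TOR_NPA_Es replicate 2 (edgeR adjusted p = 0.0604), without UB10pro_amiR-TOR_IAA_Es replicate 3 (adjusted p = 0.0629) and when strand was disregarded (adjusted p = 0.0544). The 13 effects had a median of 0.50 in the line and 0.56 in Col-0 on the log2 scale. Without estradiol, 2 of the 13, HSFA2 and Cpn60beta2, were called higher in the line than in Col-0, a share near the 13.7% of tested genes. The Cpn60beta2 call there was lost in 5 of 12 fits that each left out a library (adjusted p up to 0.0787) and with a covariate for high unmapped share (adjusted p = 0.0571). AT3G09440 (chr3:2902355-2905947 on the minus strand), an HSP70 family protein, had 812, 873 and 1174 CPM on IAA and 944, 892 and 878 CPM on NPA in UB10pro_amiR-TOR with estradiol, against 987, 1107 and 975 CPM and 247, 258 and 247 CPM without it. In Col-0 it had 1559, 1529.9 and 1404 CPM on IAA and 332, 288 and 408 CPM on NPA with estradiol, against 866, 1071 and 887 CPM and 232, 191 and 191 CPM without it. With estradiol in the line its IAA and NPA libraries overlapped, while they were far apart in every other arm. The estradiol effect on AT3G09440 was 0.89 ± 0.09 in the line (edgeR adjusted p = 3.82e-07) and 0.67 ± 0.09 in Col-0 (edgeR adjusted p = 0.000585).

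HSP81-2 (AT5G56030, chr5:22686473-22689671 on the plus strand) and HSP81-3 are HSP90 chaperones with close sequence copies, between which read assignment is uncertain. HSP81-2 had 785, 869 and 1091 CPM on IAA and 779, 824 and 749.6 CPM on NPA in UB10pro_amiR-TOR with estradiol, against 912, 859 and 868 CPM and 307, 311 and 296 CPM without it. Col-0 libraries had 1441, 1601 and 1553 CPM on IAA and 433, 386 and 469.6 CPM on NPA with estradiol, against 934, 1066 and 928 CPM and 282, 223 and 214 CPM without it. Its IAA libraries with estradiol were highest in Col-0, whereas in the line with estradiol the IAA libraries overlapped both the NPA libraries with estradiol and the IAA libraries without it. Fes1A, which associates with cytosolic Hsp70, rose with estradiol by 0.64 ± 0.08 in the line (edgeR adjusted p = 1.7e-06) and by 0.65 ± 0.08 in Col-0 (edgeR adjusted p = 9e-05).

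HSFA2 (AT2G26150, chr2:11135624-11137792 on the plus strand) is a heat stress transcription factor that activates chaperone genes. It had 25.5, 19.1 and 21.6 CPM on IAA and 21.3, 16.9 and 19.5 CPM on NPA in UB10pro_amiR-TOR with estradiol, against 15.3, 11.6 and 14.1 CPM and 1.9, 2.2 and 1.54 CPM without it. The Col-0 values were 17.7, 24.2 and 22.4 CPM on IAA and 2.09, 1.33 and 2.0 CPM on NPA with estradiol, against 5.21, 4.38 and 3.53 CPM and 1.57, 1.43 and 0.947 CPM without it. HSFA2 was high on NPA in one group, the line with estradiol, and its IAA libraries with estradiol overlapped between the genotypes. The estradiol effect on HSFA2 was 2.02 ± 0.13 in the line (edgeR adjusted p = 3.78e-10) and 1.35 ± 0.15 in Col-0 (edgeR adjusted p = 7.15e-05), and without estradiol it was higher in the line by 1.08 ± 0.15 (edgeR adjusted p = 2.58e-05). The estradiol effect was more positive in the line by 0.67 ± 0.20 (edgeR adjusted p = 0.0306). That call was lost in 6 of 24 fits that each left out a library (adjusted p up to 0.0646), those without UB10pro_amiR-TOR_IAA replicate 3, UB10pro_amiR-TOR_NPA replicate 3, Col-0_NPA_Es replicate 2, Col-0_IAA replicate 1, and Col-0_NPA replicate 1 or 2. It was also lost without the 5 libraries of high unmapped share (adjusted p = 0.0763).

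As a description of the selection, the chaperones' median response was 0.19 in UB10pro_amiR-TOR with estradiol and 1.47 without it, and 1.6 in Col-0 with estradiol and 1.70 without it. On NPA the group's level was higher with estradiol by a median of 1.11 in the line and 0.68 in Col-0, and on IAA the median difference was -0.12 in the line and 0.50 in Col-0. Of the 44 tested genes of a wider heat shock list, 5 were members; 19 were called higher and 4 lower with estradiol in the line, beside 21.1% and 16.2% of tested genes. In Col-0, 17 of them were called higher and 0 lower (22 at an unadjusted p under 0.05 in either direction), beside 5.35% and 3.76% of tested genes. The heat shock element GAANNTTC, searched as above, was in 5 of the 13 promoters (38.5%), in 15% of all members and in 11.4% of tested genes. The highest-scoring chaperone member with the element inside the printed stretch was Cpn60beta2 at chr3:4388965-4389244 (plus strand, Cpn60beta2); the element is in capitals.
Cpn60beta2: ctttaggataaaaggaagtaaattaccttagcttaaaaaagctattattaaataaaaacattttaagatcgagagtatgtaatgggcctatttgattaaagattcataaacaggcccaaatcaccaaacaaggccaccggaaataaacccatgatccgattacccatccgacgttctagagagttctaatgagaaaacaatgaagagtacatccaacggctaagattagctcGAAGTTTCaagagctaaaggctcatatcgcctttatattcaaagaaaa

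Auxin signalling and transcription factor genes numbered 9. On the log2(CPM + 1) scale, which flattens changes below 1 CPM, their response with estradiol in the line was reduced mainly on IAA. Their level on IAA was lower with estradiol in all 9 in UB10pro_amiR-TOR, by a median of 0.80, while the median change on NPA was 0.42. In Col-0 the median difference was 0.16 on IAA and 0.16 on NPA. By edgeR's fit the median change with estradiol in the line was 0.99 on NPA and -0.85 on IAA, so the larger side depends on the scale. On the log2(CPM + 1) scale these genes kept the highest response of any role group under knock-down, with a median of 1.37 in the line with estradiol. Their other medians were 2.47 in the line without it, 2.53 in Col-0 with estradiol and 2.6 in Col-0 without it. IAA5 (AT1G15580, chr1:5365512-5366497 on the minus strand) is an Aux/IAA repressor that auxin itself induces. IAA5 had 7.72, 9.32 and 8.27 CPM on IAA and 0.488, 0.391 and 0.384 CPM on NPA in UB10pro_amiR-TOR with estradiol, against 37, 19.6 and 41.8 CPM and 0.197, 0.181 and 0.11 CPM without it. In wild-type Col-0 the gene had 36.3, 24.8 and 21.3 CPM on IAA and 0.261, 0.25 and 0.123 CPM on NPA with estradiol, against 28, 26.4 and 21.5 CPM and 0.0462, 0.151 and 0.105 CPM without it. All 3 IAA libraries of the line with estradiol lay below all 9 other IAA libraries, yet far above every NPA library. IAA5 overlaps AT1G15570 on the other strand, which strand-specific counting keeps apart. Its estradiol effect averaged over both conditions was -0.31 ± 0.35 in the line (edgeR adjusted p = 0.518) and 0.46 ± 0.37 in Col-0 (edgeR adjusted p = 0.45).

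LBD33, a LOB-domain transcription factor of the family that acts in lateral root initiation, was the member with the largest response left: 40.3, 45.2 and 19.1 CPM on IAA and 0.537, 0.391 and 0.73 CPM on NPA in the line with estradiol, against 61.6, 60.2 and 66.9 CPM and 0.656, 0.181 and 0.165 CPM without it. In Col-0 LBD33 had 76.2, 97.5 and 96.7 CPM on IAA and 0.366, 0.625 and 0.469 CPM on NPA with estradiol, against 84.3, 72.2 and 84.5 CPM and 0.323, 0.566 and 0.421 CPM without it. Its IAA libraries in the line with estradiol lay below all others on IAA, and replicate 3 was the lowest. GATA17, a GATA transcription factor chosen here after its values were seen, had an estradiol effect of -0.23 ± 0.09 in the line and 0.39 ± 0.09 in Col-0, and the difference of -0.62 ± 0.13 passed the test (edgeR adjusted p = 0.00304). IAA5 was 1 of 16 Aux/IAA genes among the 1341 induced genes, and LBD33 was 1 of 7 LBD genes; the other 15 and 6 were not members. Averaged over both conditions, 0 of 28 tested Aux/IAA genes were called higher with estradiol in the line and 5 lower, and in Col-0 0 were higher and 4 lower (7 and 8 at an unadjusted p under 0.05). The shares of tested genes called lower were 16.2% in the line and 3.76% in Col-0. Auxin response elements, TGTCTC or TGTCGG on either strand, were in 16.0% of members, 21.0% of the other induced genes and 18.7% of tested genes, and the wider TGTCNN was in 80.0% of members and 81.7% of tested genes. The 2 auxin signalling members of highest score that hold an element are shown, with the elements in capitals, at chr1:5366468-5366747 (minus strand, IAA5) and chr5:1831438-1831717 (minus strand, LBD33).
IAA5: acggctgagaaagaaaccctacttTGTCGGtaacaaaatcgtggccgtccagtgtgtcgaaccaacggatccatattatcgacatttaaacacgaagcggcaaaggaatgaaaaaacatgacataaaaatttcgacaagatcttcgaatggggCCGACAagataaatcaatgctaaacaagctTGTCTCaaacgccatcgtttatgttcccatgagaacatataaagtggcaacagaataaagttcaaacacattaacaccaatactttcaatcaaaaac
LBD33: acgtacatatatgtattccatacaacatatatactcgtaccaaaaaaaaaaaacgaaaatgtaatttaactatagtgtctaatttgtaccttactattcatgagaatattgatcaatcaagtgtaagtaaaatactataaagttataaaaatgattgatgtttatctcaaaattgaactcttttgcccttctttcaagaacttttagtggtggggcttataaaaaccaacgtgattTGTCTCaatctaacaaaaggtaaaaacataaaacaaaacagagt
IAA5 holds 3 elements, TGTCTC at bases -67 to -62 and TGTCGG at bases -226 to -221 and, on the opposite strand, -97 to -92. LBD33 holds 1, TGTCTC at bases -14 to -9.

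Cell wall and secreted protein genes numbered 12 and fell into opposite patterns. The IAA level in UB10pro_amiR-TOR was lower with estradiol in 6 and not lower in the other 6, in which the NPA level was higher by 1.36 to 2.85 log2 units. Estradiol raised 6 and lowered 3 of the 12 in the line and raised 1 in Col-0. Of all tested genes, 21.1% were called higher and 16.2% lower in the line, and 5.35% higher in Col-0. AT1G58170 (chr1:21535895-21537216 on the plus strand), a dirigent-like protein, had 32.8, 32.6 and 33.1 CPM on IAA and 41.3, 53.9 and 56.6 CPM on NPA in UB10pro_amiR-TOR with estradiol, against 23.6, 22.5 and 23.3 CPM and 7.94, 7.91 and 7.77 CPM without it. In Col-0 it had 35.1, 34.8 and 39.7 CPM on IAA and 10.1, 11.5 and 14.9 CPM on NPA with estradiol, against 34.8, 30.4 and 26.6 CPM and 13.8, 5.4 and 5.84 CPM without it. In the line with estradiol the gene was higher on NPA than on IAA in every library. Its estradiol effect was 1.61 ± 0.16 in the line (edgeR adjusted p = 2.55e-07) and 0.38 ± 0.16 in Col-0 (edgeR adjusted p = 0.131), a difference of 1.23 ± 0.22 (edgeR adjusted p = 0.0011).

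PDF1, a protein of the outer cell layer, and GRP5, a glycine-rich protein, also had a high NPA level with estradiol in the line. PDF1 had 16.7, 21.3 and 19.2 CPM on IAA and 23, 32 and 20.2 CPM on NPA in UB10pro_amiR-TOR with estradiol, against 8.8, 12.9 and 8.82 CPM and 2.49, 0.361 and 8.54 CPM without it. In Col-0 PDF1 had 5.91, 6.11 and 7.37 CPM on IAA and 2.45, 2.42 and 2.52 CPM on NPA with estradiol, against 7.31, 4.93 and 5.71 CPM and 0.738, 1.21 and 0.316 CPM without it. UB10pro_amiR-TOR_NPA replicate 2 was the lowest and replicate 3 the highest of their group for PDF1, and likewise for GRP5 (6.43, 1.88 and 15.9 CPM), AT5G01870 (7.21, 1.48 and 18.9 CPM), AT5G45670 (0.197, 0.0361 and 1.76 CPM) and the unsorted member AT3G23450 (1.51, 0.325 and 2.37 CPM), so these members do not vary independently. The estradiol effect on PDF1 was 1.87 ± 0.36 in the line (edgeR adjusted p = 0.00062) and 0.85 ± 0.43 in Col-0 (edgeR adjusted p = 0.226). Epidermis markers (GL2 and WER, summed) lay between 8.78 and 17.2 CPM in UB10pro_amiR-TOR_IAA_Es, 27.8 and 30.8 CPM in NPA_Es, 11.8 and 14.7 CPM in IAA, and 21.0 and 21.9 CPM in NPA of the line; their part in these values was not tested.

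EXPA15 (AT2G03090, chr2:916806-918671 on the minus strand), an expansin, which loosens cell walls, had 19, 27.2 and 17.4 CPM on IAA and 29.5, 23 and 25.3 CPM on NPA in UB10pro_amiR-TOR with estradiol, against 40.0, 38.4 and 41.4 CPM and 19.1, 15.3 and 22.5 CPM without it. Col-0 libraries had 82.8, 82.9 and 87.5 CPM on IAA and 33.9, 25.4 and 75.6 CPM on NPA with estradiol, against 88.1, 87.4 and 89.8 CPM and 35.3, 10.6 and 9.84 CPM without it. On IAA every library of the line, with or without estradiol, was below every Col-0 library, and on NPA Col-0_NPA_Es replicate 3 and Col-0_NPA replicate 1 stood far above the others of their groups. AT4G15160 (chr4:8646150-8647252 on the plus strand), a lipid-transfer type protein, had 183, 212 and 217 CPM on IAA and 175, 174 and 176 CPM on NPA in the line with estradiol, against 437, 456 and 410.1 CPM and 139, 149 and 147 CPM without it. In Col-0 AT4G15160 had 372, 328 and 345 CPM on IAA and 109.6, 107 and 94.7 CPM on NPA with estradiol, against 334, 308 and 399.9 CPM and 59.8, 67.6 and 67.8 CPM without it. Estradiol changed it in opposite directions, -0.39 ± 0.07 in the line (edgeR adjusted p = 0.000232) and 0.30 ± 0.07 in Col-0 (edgeR adjusted p = 0.0137; 0.0647 without the 5 libraries of high unmapped share and 0.0513 with only the groups compared), a difference of -0.70 ± 0.10 (edgeR adjusted p = 0.000157). AT3G07620, a glycosyltransferase, had 0.433, 0.75 and 0.521 CPM on IAA in the line with estradiol, against 4.95, 5.24 and 3.97 CPM without it, 10.1, 6.48 and 4.18 CPM in Col-0 with estradiol and 12.2, 8.09 and 7.9 CPM in Col-0 without it. No read was counted in its 3 libraries on NPA with estradiol in the line, which allows up to 0.147 CPM in the shallowest (3 counts, counting error only), and it stayed at or below 0.157 CPM on NPA elsewhere. AT3G07620 was the 1 member whose response in the line did not fall with estradiol in edgeR's fit (0.27 log2 units). That value depends on edgeR's prior count, and the gene's score depends on the 1 added to CPM. AT5G14650, a pectin lyase-like protein, was lower with estradiol in the line (-1.61 ± 0.54, edgeR adjusted p = 0.0246), a call lost without UB10pro_amiR-TOR_NPA replicate 3 (adjusted p = 0.200).

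Transport and metabolism genes numbered 6, and all 6 were lower on IAA with estradiol in the line, by a median of 1.15. NRT1.8 (AT4G21680, chr4:11517353-11519805 on the minus strand), a nitrate transporter that unloads nitrate from the xylem, had the highest score of all members. NRT1.8 had 0.197, 1.89 and 1.47 CPM on IAA and 2.0, 1.63 and 2.77 CPM on NPA in UB10pro_amiR-TOR with estradiol, against 9.23, 4.77 and 6.81 CPM and 1.18, 0.65 and 0.936 CPM without it. The Col-0 values were 7.09, 9.64 and 11.4 CPM on IAA and 1.1, 0.916 and 1.01 CPM on NPA with estradiol, against 8.8, 4.99 and 6.68 CPM and 0.646, 1.02 and 0.894 CPM without it. All 3 IAA libraries of the line with estradiol were below all 9 other IAA libraries, and replicate 1, the library with many unmapped reads, was the lowest, with 5 counts. The averaged estradiol effect on NRT1.8 was -0.63 ± 0.31 in the line (edgeR adjusted p = 0.115) and 0.31 ± 0.30 in Col-0 (edgeR adjusted p = 0.543). DES1, a cysteine desulfhydrase that makes hydrogen sulfide, had 0.788, 0.821 and 0.49 CPM on IAA in the line with estradiol, against 2.81, 3.73 and 2.94 CPM without it, 3.36, 3.75 and 3.02 CPM in Col-0 with estradiol and 1.42, 2.8 and 3.53 CPM in Col-0 without it. NAS4, which makes the metal chelator nicotianamine, had 2.76, 8.78 and 2.54 CPM on IAA in the line with estradiol, against 12.3, 17.8 and 15.5 CPM without it, 7.51, 3.54 and 4.95 CPM in Col-0 with estradiol and 6.09, 4.86 and 3.88 CPM in Col-0 without it. Without estradiol NAS4 was higher in the line than in Col-0 by 2.03 ± 0.40 (edgeR adjusted p = 0.000899).

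The remaining roles were small. Of 3 DNA replication and repair members, among them the sliding clamp PCNA1 and the licensing factor CDT1B, 2 rose with estradiol in each genotype. Of all tested genes, 21.1% were called higher in the line and 5.35% in Col-0. The 4 small nucleolar RNAs guide the modification of ribosomal RNA and were low, between 1.29 and 7.75 CPM on average over all libraries; 0 were called in the line (0 at an unadjusted p under 0.05) and 1, AT5G00750, rose in Col-0 with estradiol (1.39 ± 0.38, edgeR adjusted p = 0.025), a call lost without Col-0_IAA_Es replicate 3, Col-0_NPA_Es replicate 3, Col-0_NPA replicate 1 or Col-0_NPA replicate 3 (adjusted p of 0.0501 to 0.0827). It was also lost without the 5 libraries of high unmapped share (adjusted p = 0.102) and with only the groups compared (adjusted p = 0.0664), and the value ranged from 1.13 to 3.16 over fits that each left out a library, with the highest without Col-0_NPA replicate 2. Of the 29 unsorted members, 6 rose and 3 fell with estradiol in the line, and 11 rose in Col-0. The counts in the line are not above the shares of tested genes called there, 21.1% higher and 16.2% lower. Among them AT4G10270, a wound-responsive family protein, had 0.867, 1.82 and 0.459 CPM on IAA in the line with estradiol, against 4.57, 5.01 and 4.38 CPM without it, 14.5, 11.6 and 14.3 CPM in Col-0 with estradiol and 8.46, 5.17 and 8.25 CPM in Col-0 without it. AT4G03292, annotated as ribonuclease H-like, had 1.85, 2.5 and 1.65 CPM on IAA and 2.05, 1.95 and 1.73 CPM on NPA in the line with estradiol, against 4.28, 4.77 and 5.42 CPM and 1.05, 0.47 and 0.826 CPM without it. The members lay on all 5 chromosomes (18, 14, 28, 12 and 28 genes on chromosomes 1 to 5), and 95 were protein coding, 4 snoRNAs and 1 a long noncoding RNA. In TAIR10.1, 9 overlapped another gene on the same strand, where reads may be lost or shared, FIB2, RPSAb and AT3G09440 among them, and 26 overlapped a gene on the other strand. The small nucleolar RNA SNOR77 (chr5:3343593-3343725) lies on the same strand inside the long noncoding RNA member AT5G01775 (chr5:3343190-3343998), so their counts may not be separate.

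As a further description, the rule was applied without the libraries of each replicate number in turn, and the chosen genes were read in the libraries left out. Each time 71 of the 100 genes chosen were members. In the libraries left out, the chosen genes' response in UB10pro_amiR-TOR was smaller with than without estradiol by a median of 1.07, 1.09 and 0.93 log2 units without replicates 1, 2 and 3, in 99, 97 and 99 of 100 genes. For the other induced genes the medians were 0.43, 0.48 and 0.50, and the response was smaller in 878 of 1170, 900 of 1193 and 1098 of 1278. Against Col-0 with estradiol, the chosen genes' response in the line with estradiol was smaller by 1.03, 1.28 and 0.83, and for the other induced genes by 0.48, 0.56 and 0.34. In Col-0 the chosen genes' response was smaller with than without estradiol by 0.54, 0.30 and 1.05, and for the other induced genes by 0.13, 0.28 and 0.56. Each of these rests on 1 library per group, so no test was made. The labels do not say that replicates came from separate plantings, so the libraries left out may not be independent of those used. The genes counted do not vary independently either, and the values do not show where the difference comes from.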

How the data were processed

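Root RNA was measured in 24 libraries, 3 in each of 8 groups taken from the labels. The authors deposited raw read counts per gene locus and strand setting for each library; the submitters' processing notes name STAR 2.5.2b, DESeq2 and the build TAIR10. The column of the main strand was used, and its 4 summary lines were left out of library sums. The members and the gene lists were chosen with earlier results of these data known. Tests used edgeR 4.0.16 in R 4.3.3 (quasi-likelihood, TMM factors of 0.957 to 1.04, low-count filter by group, 21290 loci tested) on all 24 libraries with a mean per group. P-values were adjusted by Benjamini-Hochberg over all tested loci and called under 0.05; the script was tested on simulated data. Named genes were the 20 members of highest score, up to 3 members per gene list, the 3 largest called rises and falls per tested comparison, and those at the thresholds; genes shown for their promoter or chosen later are marked. Alternatives were RLE factors, no filter, unstranded counts, other pseudocounts, a replicate block, DESeq2 1.42.0, the compared groups alone and leaving out libraries. Counting noise falls with depth, which differed between libraries as given above. The limit given for libraries with no read covers counting error only, while edgeR's SEs and the SDs include the spread between replicates. Replicates differed by more than counting noise, so none was merged. Gene names, positions and promoters came from RefSeq's TAIR10.1, in which 32548 of 32833 loci were matched.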

Additional observations from a re-analysis of the deposited data

Results flagged for a closer look

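The estradiol effect, averaged over NPA and IAA, differed between UB10pro_amiR-TOR and Col-0 in 13 members by the edgeR test of the difference itself, and these are given as log2 differences, line minus Col-0. Adjusted p-values below are edgeR's over all tested genes. Among cell wall and secreted proteins the difference was 1.23 for AT1G58170, a dirigent-like protein, and -0.70 for AT4G15160, a lipid-transfer type protein. It was -3.77 for the glycosyltransferase AT3G07620 (edgeR adjusted p = 0.0194). No read of AT3G07620 was counted in the 3 UB10pro_amiR-TOR_NPA_Es libraries, so its fitted value depends on the prior count and is no bound. It ranged from -5.11 to -3.46 over fits that each left out a library, and its call was lost without UB10pro_amiR-TOR_NPA replicate 2 (adjusted p = 0.116). For the heat stress factor HSFA2 the difference was 0.67, a call lost in 6 of 24 such fits, as given above.

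Among transcription factors the difference was -0.62 for GATA17 and -0.44 for NF-YC2, a subunit of nuclear factor Y. The NF-YC2 call was lost in 19 of 24 fits that each left out a library, all but those without UB10pro_amiR-TOR_IAA_Es replicate 2, UB10pro_amiR-TOR_NPA_Es replicate 3, Col-0_IAA_Es replicate 1, Col-0_NPA_Es replicate 2 or Col-0_NPA replicate 3. It was also lost with no low-count filter (adjusted p = 0.0696), with the replicate block (-0.44, adjusted p = 0.057) and without the 5 libraries of high unmapped share (-0.26, adjusted p = 0.317).

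In metabolism the difference was -1.53 for the cysteine desulfhydrase DES1. That call was lost without UB10pro_amiR-TOR_IAA_Es replicate 3, UB10pro_amiR-TOR_NPA_Es replicate 2, UB10pro_amiR-TOR_NPA replicate 1 or 2, Col-0_NPA_Es replicate 1 or Col-0_NPA replicate 2 (adjusted p of 0.0528 to 0.0745), and without the 5 libraries of high unmapped share (adjusted p = 0.0578). AT5G57890, a glutamine amidotransferase that overlaps another gene on the same strand, had -0.47, a call lost without the 5 libraries of high unmapped share (-0.32, adjusted p = 0.166).

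The small nucleolar RNA AT5G00750 had -1.69. Its value ranged from -3.47, without Col-0_NPA replicate 2, to -1.43 over fits that each left out a library, and the call was lost without the 5 libraries of high unmapped share (adjusted p = 0.057). Of the unsorted members, AT2G34080, a cysteine proteinase, had -0.73 and AT2G32280, a DUF1218 protein, -0.64. AT3G61930, which is uncharacterized, had -0.72, a call lost without UB10pro_amiR-TOR_IAA_Es replicate 3, UB10pro_amiR-TOR_IAA replicate 1, UB10pro_amiR-TOR_NPA replicate 2 or Col-0_NPA replicate 2 or 3 (adjusted p of 0.0528 to 0.0636). AT3G15680, a zinc finger protein, had -0.57, a call lost in 19 of 24 fits that each left out a library (adjusted p up to 0.0947) and with no low-count filter (adjusted p = 0.058). The fits that kept the AT3G15680 call were those without UB10pro_amiR-TOR_IAA_Es replicate 1, UB10pro_amiR-TOR_NPA_Es replicate 3, UB10pro_amiR-TOR_NPA replicate 2, Col-0_NPA_Es replicate 2 or Col-0_NPA replicate 1. Among all genes tested, 6.62% passed as more positive in the line and 6.46% as more negative.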

How the results depend on the processing

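With log2(CPM + 5) the rule still took 57 of the 100 members, the lowest number of any alternative; the others kept 78 to 100, and leaving out each replicate number kept 71 to 71. Members lower in UB10pro_amiR-TOR than in Col-0 without estradiol, 3 as reported, numbered 7 with RLE factors, 5 with only the groups compared and 9 with DESeq2. Members with a more positive estradiol effect in the line, 2 as reported, numbered 1 without the 5 libraries of high unmapped share. Leaving out each library in turn gave 38 to 45 members higher and 6 to 10 lower with estradiol in the line, and 24 to 59 higher and 0 to 0 lower in Col-0. It gave 8 to 13 higher and 3 to 13 lower in the line without estradiol, and 1 to 4 more positive and 7 to 14 more negative estradiol effects. The count of 0 lower in Col-0 was 0 with DESeq2 too. Of 74 called results of named genes, 42 were called in every alternative, 32 were lost in at least 1 and 0 reversed; the cause was not tested. With the replicate block the counts were 45 and 8 in the line, 49 and 0 in Col-0, 11 and 3 between genotypes and 2 and 10 for the difference. Replicate numbers showed no general pairing of the libraries: correlations of same-numbered deviations had medians of 0.01 to 0.05. Single correlations ranged from -0.40 to 0.34, and 19 of 84 pairs lay above 0.1. Genes of a few CPM, such as NRT1.8 and the small nucleolar RNAs, rest on few reads, and differences there are hard to detect.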

Other observations

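Cyclins and CDKs held 0 members. With estradiol in UB10pro_amiR-TOR, 21 of 40 tested genes were called higher and 1 lower, beside 21.1% and 16.2% of all tested genes. In Col-0, 8 were called higher and 0 lower (16 at an unadjusted p under 0.05 by edgeR), beside 5.35% and 3.76% of all tested genes. Root hair markers were higher in UB10pro_amiR-TOR than in Col-0 without estradiol in 4 of 5 genes, and epidermis markers in 2 of 2, beside 13.7% of all tested genes. Their part in the members' levels was not tested.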
